A study of Mus musculus with 2 samples.

Results

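Among 480 genes measured in place in mouse skin, 9 encode parts of the collagenous matrix or proteases that act on it. They were taken by name: the collagen genes Col5a2, Col6a2 and Col6a3, the small proteoglycan genes Lum and Aspn, the microfibril-associated gene Mfap4, and the protease genes Mmp2, Mmp27 and Adam12. All 9 were found in both sections. The groups were 1 section labelled Utx-cKO and 1 section labelled WT control, both of whole skin from untreated B6/129 females. Their age is not stated. In the Utx-cKO mice, Cre recombinase under the keratin-14 promoter deletes Kdm6a (Utx), a histone demethylase gene, in epithelium that expresses keratin-14. Dermal fibroblasts, where the 9 genes were mostly found, are therefore not the cells in which this promoter is known to act. The assay, Xenium, decodes single RNA molecules by imaging of a tissue section. Each group being a single section, no replicates exist and nothing was tested. Intervals in parentheses are exact 95% intervals that cover counting error only.

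Fibroblasts build and remodel the dermal matrix. Type V collagen is a minor collagen that helps to set the width of collagen fibrils, and type VI collagen forms beaded filaments around cells from several different chains. Lumican and asporin, the products of Lum and Aspn, are leucine-rich proteoglycan family proteins that bind collagen fibrils, and Mfap4 encodes a glycoprotein found with elastic microfibrils. Mmp2 encodes gelatinase A, Mmp27 a less studied matrix metalloproteinase, and Adam12 a membrane-bound disintegrin metalloproteinase. In mouse skin the upper, papillary dermis and the lower, reticular dermis hold fibroblasts that differ in the genes they use.

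The Utx-cKO section had 2875112 gene transcripts of sufficient quality, 84.9% of them inside segmented cells, and the WT section had 3540184, 74.7% of them inside cells. The 9 genes gave 127652 transcripts in the Utx-cKO section (4.44% of all) and 181487 in the WT section (5.13%). Adam12 was the scarcest, with 716 transcripts in the Utx-cKO section and 842 in the WT section, against 207 and 128 for the most frequent negative control probe. Kdm6a itself was not lower by 1.5-fold in fibroblast-like cells, with 2944 CPM in the Utx-cKO section and 3095 CPM in the WT section (log2 ratio -0.07, -0.19 to 0.05). The labels do not say if its probes lie in the deleted part. CPM (counts per 1e6) scale a count to the counts of the other 471 panel genes in the same cells, so the 9 genes do not enter their own scale. Probe sets differ between genes, so the level of one gene is not set against that of another. Each section held 4 separate strips of tissue, here called strips 1 to 4 by their position on the slide. The labels name neither the animal nor the site of a strip, strips are not replicates, and a shared number does not pair them between sections. Strip 3 stood apart from the others of its section for several of the 9 genes. Only 2 cell identifiers occurred in both sections.

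Cells were clustered without the 9 genes, which gave 14 clusters. Of these, 3 were fibroblast-like by their markers, and each is called here by its leading gene. The Igfbp2 cluster (also led by Ccl19) held 2570 Utx-cKO and 3593 WT cells, the Igfbp3 cluster (Lef1) 2866 and 1862 cells, and the Sfrp2 cluster (Ptgs2) 2361 and 2303 cells. They lay at different depths. The median distance to the nearest granular keratinocyte-like cell, the outermost living layer of the epidermis, was 87.3 µm in the Utx-cKO section and 68.1 µm in the WT section for the Igfbp2 cluster, 139 and 108 µm for the Igfbp3 cluster, and 261 and 216 µm for the Sfrp2 cluster. Median depth was 41 transcripts per fibroblast-like cell in the Utx-cKO section and 51 in the WT section. Markers of other cell types were few in these cells: the highest shares were those of 7 T and NK cell markers, at 1.73% of counts in the Utx-cKO section and 1.81% in the WT section, and 6 basal keratinocyte markers, at 1.02% and 1.01%. The 13 fibroblast markers on the panel made up 14.8% and 13.9%.

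The question of where in the skin the matrix genes were used was answered alike for the members when both sections were pooled: all 9 were highest in a fibroblast-like cluster, as were 22.2% of the panel genes with enough counts. Among cells with at least 40 transcripts, where 2 clusters in place of 3 were named fibroblast-like, this held for 5, and not for Lum, Mfap4, Mmp27 and Adam12. Col5a2, Col6a2, Col6a3, Aspn and Adam12 were highest in the Igfbp3 cluster, Lum, Mfap4 and Mmp27 in the Igfbp2 cluster, and Mmp2 in the Sfrp2 cluster. For Col5a2 this order was that of the pooled strips only: the Igfbp2 cluster was above the Igfbp3 cluster in 7 of 8 strips, and the Igfbp3 cluster was the highest in 1. Strip 3, where Col5a2 was highest, held more fibroblast-like cells than any other strip of its section, and 49.9% of those in the Utx-cKO section and 34.0% of those in the WT section were of the Igfbp3 cluster. Aspn was highest in the Igfbp3 cluster in 8 of 8 strips, Col6a3 in 7, Col6a2 in 6 and Adam12 in 5. For Adam12 the Igfbp3 cluster stood at 825 CPM and the Igfbp2 cluster at 791 CPM over both sections. These levels did not differ beyond counting error (log2 of Igfbp2 over Igfbp3 -0.06, -0.35 to 0.23). In the Utx-cKO section alone Adam12 was highest in the Igfbp2 cluster, at 1072 CPM against 848 CPM in the Igfbp3 cluster. Mmp27 was the most concentrated in fibroblast-like cells, which held 73.5% of its in-cell transcripts in the Utx-cKO section and 75.8% in the WT section. Its level there was 16.1 times that of the other kept cells in the Utx-cKO section and 15.1 times in the WT section. Adam12 was the least concentrated, at 47.0% and 41.1%. In the WT section alone Adam12 was highest outside the fibroblast-like cells, in a cluster led by Cd1d1 and Fasn that also had the adipocyte genes Pparg and Agpat2 among its leading genes. Adam12 stood there at 586 CPM in the Utx-cKO section and 855 CPM in the WT section. In the same cluster Mfap4 was low, at 1268 and 1140 CPM, while Col6a2 stood at 14777 and 20053 CPM.

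**Figure D1:**
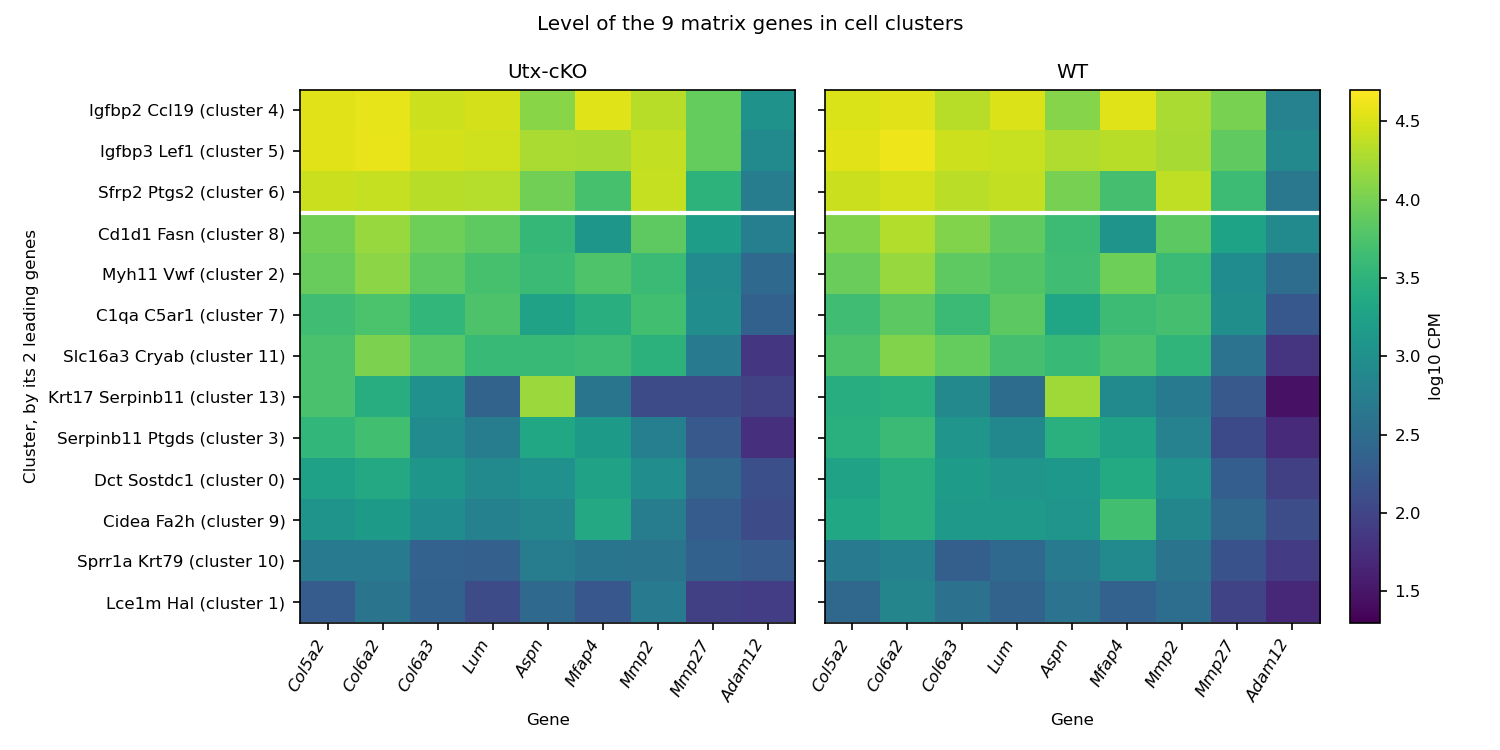
Level of each of the 9 genes (columns, log10 CPM by colour) in cell clusters (rows, named by 2 leading genes), Utx-cKO section on the left and WT section on the right, with the 3 fibroblast-like clusters above the white line. The fibroblast-like rows are the brightest for nearly every gene, and Aspn is also bright in the cluster led by Krt17 and Serpinb11.

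The transcripts of most of these genes lay outside segmented cells, and off the nucleus within cells, more often than those of the median gene. A median of 17.6% of the members' transcripts lay outside segmented cells in the Utx-cKO section and 26.4% in the WT section, against medians of 7.31% and 10.9% over all genes with at least 100 transcripts. Of the transcripts inside cells, a median of 43.7% lay over the nucleus in the Utx-cKO section and 40.6% in the WT section, against 61.0% and 57.5% over all genes. The exceptions were Mmp27, at 73.7% and 71.9% over the nucleus, and Adam12, at 64.2% and 61.1%. Lum was at the other end in the share outside cells, with 26.2% in the Utx-cKO section and 33.2% in the WT section.

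Mfap4 separated the fibroblast-like clusters most. It stood at 34556 CPM in the Igfbp2 cluster, 18222 CPM in the Igfbp3 cluster and 5116 CPM in the Sfrp2 cluster of the Utx-cKO section, and at 34620, 21936 and 5006 CPM in those of the WT section. The Igfbp2 cluster was thus 6.75 times the Sfrp2 cluster in the Utx-cKO section (log2 2.76, 2.62 to 2.89) and 6.92 times in the WT section (2.79, 2.68 to 2.90). By strip, its level in the Igfbp2 cluster was 18009, 24173, 55027 and 5094 CPM in the Utx-cKO section and 22514, 26333, 54858 and 24107 CPM in the WT section. In the Sfrp2 cluster the strips had 2952, 6517, 9840 and 712 CPM in the Utx-cKO section and 1097, 11398, 9910 and 3924 CPM in the WT section. In all 8 strips the Igfbp2 cluster was the higher one, although its lowest strip lay below the highest strips of the Sfrp2 cluster.

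Mmp27 followed the same order more weakly. It had 7999 CPM in the Igfbp2 cluster, 7915 CPM in the Igfbp3 cluster and 3191 CPM in the Sfrp2 cluster of the Utx-cKO section, against 10326, 7321 and 4267 CPM in the WT section. In the Utx-cKO section the first pair, pooled over strips, did not differ beyond counting error (log2 0.02, -0.12 to 0.15). By strip, Mmp27 was higher in the Igfbp2 than in the Igfbp3 cluster in 6 of 8. The exception was strip 3 of each section, with 8509 against 10132 CPM in the Utx-cKO section and 8577 against 9660 CPM in the WT section. The Igfbp2 cluster was 2.51 and 2.42 times the Sfrp2 cluster. Pooled over sections, Mfap4, Mmp27 and Adam12 were at least 1.5 times higher in the Igfbp2 than in the Sfrp2 cluster, as were 20.4% of all genes tested, and no member was 1.5 times lower, as were 17.5%. Adam12 is the least certain of these, since its log2 ratio was 1.00 (0.50 to 1.51) in the Utx-cKO section and 0.46 (0.00 to 0.92) in the WT section.

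Aspn had its peak in the middle cluster. Its level was 12376 CPM in the Igfbp2 cluster, 18329 CPM in the Igfbp3 cluster and 9441 CPM in the Sfrp2 cluster of the Utx-cKO section, and 12257, 19943 and 9937 CPM in the WT section. Pooled over sections, its log2 ratio of the Igfbp2 over the Igfbp3 cluster was -0.63 (-0.70 to -0.57). Aspn was the only member past 1.5-fold lower in that comparison, as were 8.88% of genes, while Mfap4 was the only one past 1.5-fold higher, as were 19.3%. Between the Igfbp3 and Sfrp2 clusters, Aspn, Mfap4, Mmp27 and Adam12 were at least 1.5 times higher in the Igfbp3 cluster over both sections (15.1% of genes) and none was lower (15.8%). Between the Igfbp2 and Sfrp2 clusters Mmp2 ran the other way from Mfap4. It had 21338, 24067 and 24971 CPM in the Igfbp2, Igfbp3 and Sfrp2 clusters of the Utx-cKO section and 18377, 18145 and 23661 CPM in those of the WT section. By strip, Mmp2 was highest in the Sfrp2 cluster in 6 of 8, and higher in the Igfbp2 than in the Igfbp3 cluster in 6 of 8. The pooled spread of Mmp2, 1.24-fold, was the smallest of the 9. Pooled over sections and strips, the collagens and Lum also differed little, by 1.32 to 1.44-fold between their highest and lowest fibroblast-like cluster. Single strips could be further apart. In Utx-cKO strip 2, Mmp2 had 11166 CPM in the Igfbp3 cluster and 26291 CPM in the Sfrp2 cluster. In Utx-cKO strip 4, Lum had 25685 CPM in the Igfbp2 cluster and 9680 CPM in the Sfrp2 cluster. In WT strip 3, by contrast, Mmp2 had 16228, 18939 and 17145 CPM in the Igfbp2, Igfbp3 and Sfrp2 clusters.

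**Figure D2:**
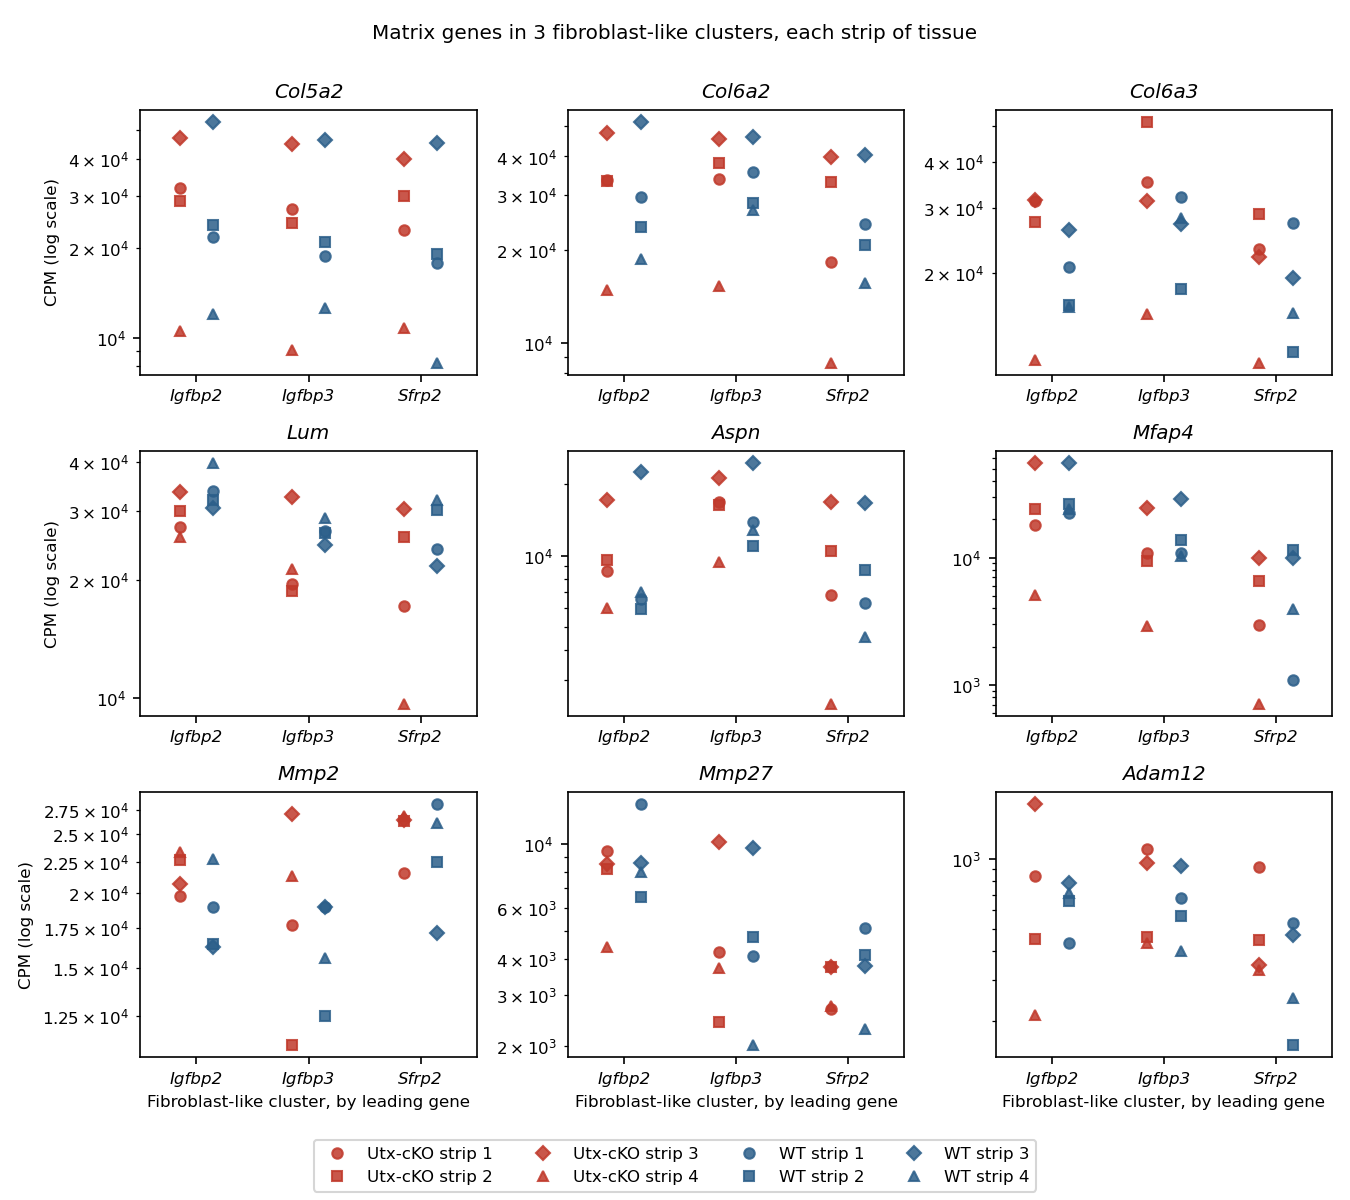
Level of each gene (CPM, log scale) in the Igfbp2, Igfbp3 and Sfrp2 fibroblast-like clusters, with 1 point for each of the 4 strips of the Utx-cKO section (red) and of the WT section (blue). Mfap4 declines from the Igfbp2 to the Sfrp2 cluster in all 8 strips, and the strip 3 diamonds lead Col5a2 in every cluster of both sections.

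A finer clustering split off fibroblast-like cells led by Lef1 and Inhba, 1050 in the Utx-cKO section and 832 in the WT section, in which the 9 genes parted in a way that the 3 clusters did not show. This split was singled out after its values were seen. Col6a3 was highest there, at 44560 CPM in the Utx-cKO section and 34000 CPM in the WT section, against 27814 and 27182 CPM in the Igfbp3 cells of the same clustering. Lum was lowest there, at 12600.1 and 11284 CPM, against 35319 and 32903 CPM in those Igfbp3 cells. Mmp27 had 1903 and 1450 CPM, against 9914 and 9449 CPM, and Mmp2 had 13716 and 10969 CPM, against 28823 and 22129 CPM. Col5a2 had 27453 and 25048 CPM, against 40276 and 41435 CPM, and Mfap4 had 17019 and 17126 CPM, against 21567 and 26847 CPM. Aspn and Col6a2 were not reduced in the Lef1 and Inhba cells, with 19841 and 19648 CPM for Aspn and 44035 and 44801 CPM for Col6a2. Adam12 was higher there in the Utx-cKO section, at 1466 against 780 CPM, and lower in the WT section, at 609 against 892 CPM. Lef1 is a known mediator of Wnt signalling and a marker of dermal cells near hair follicles.

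Aspn was also high in epithelium. In an unnamed epithelial cluster led by Krt17, Serpinb11 and Lhx2, of which Krt17 and Lhx2 are known from hair follicle epithelium, it had 15344 CPM in the Utx-cKO section (14046 to 16730) and 16495 CPM in the WT section (15161 to 17914), which placed that cluster second of the 14. This observation was picked after its values were seen. In the same cells Lum had 239 and 322 CPM and Mmp2 119 and 497 CPM. The other cluster of follicle cells, named by stem cell and outer root sheath markers, had 2164 and 2836 CPM of Aspn. Counting only transcripts over nuclei gave 16610 and 15824 CPM in the Krt17 and Serpinb11 cells. Cells with no fibroblast-like cell centre within 20 µm, 254 in the Utx-cKO section and 184 in the WT section, had 11962 and 11224 CPM, against 17262 and 18806 CPM in those with one within 20 µm. By strip the level was 9897, 16294, 19882 and 7600 CPM in the Utx-cKO section and 13665, 12886, 22386 and 7493 CPM in the WT section, so each strip exceeded the pooled level of the other follicle cluster. The matrix gene Postn, from the wider matrix list, was high in these cells as well, at 42901 CPM over both sections.

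In epithelial cells as a whole, levels of most of the 9 genes declined with distance from fibroblasts. In bins of 0 to 15, 15 to 30, 30 to 60 and over 60 µm from the nearest fibroblast-like cell, Mfap4 had 3022, 937, 319 and 90.1 CPM in the Utx-cKO section and 3442, 1146, 271 and 132 CPM in the WT section. Col5a2 had 3006, 1188, 633 and 263 CPM in the Utx-cKO section and 2831, 1026, 351 and 207 CPM in the WT section. Aspn fell less far than Mfap4 and Col5a2, from 2392 to 496 CPM in the Utx-cKO section and from 3115 to 659 CPM in the WT section between the first and last bin. Mmp2 fell less far still, from 964 to 338 CPM and from 992 to 320 CPM. So did Mmp27, from 236 to 97.6 CPM and from 220 to 151 CPM. Adam12 was low in every bin and did not decline, at 107, 110, 119 and 105 CPM in the Utx-cKO section and 80.4, 49.7, 67.7 and 188 CPM in the WT section. How much of these levels came from transcripts of neighbouring fibroblasts assigned to epithelial cells was not tested.

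The panel genes outside the 9 that were most like each member were named by Pearson's correlation of log2(CPM + 10) over the 14 clusters with both sections pooled, which share libraries and depth and give no test. Col6a2 was closest to Col6a1 (r = 0.991), its partner chain in type VI collagen, and then to Pdgfra (0.956), a fibroblast receptor gene, and Plac9a (0.948). Col5a2 was also closest to Col6a1 (0.964), followed by Pdgfra (0.943) and Fyn (0.942). Pdgfra came first for Col6a3 (0.985), Lum (0.983), Mmp2 (0.977) and Mmp27 (0.959). Col6a1 (0.966) and Pdpn (0.961) followed it for Col6a3, Pdpn and Rassf8 for Lum (0.966 and 0.960) and for Mmp2 (0.971 and 0.968), and Pdpn and Lsamp for Mmp27 (0.930 and 0.926). The highest correlations outside the 9 were lower for the remaining members: Mfap4 with Lsamp (0.917), Hmgn2 (0.849) and Pdgfra (0.845), Adam12 with Cyp7b1 (0.919), Ptger3 (0.884) and Ccl19 (0.842), and Aspn with Cald1 (0.828), Igfbp5 (0.805) and Fyn (0.792). Between members the highest correlation was that of Lum with Mmp2 (0.988) and the lowest that of Aspn with Adam12 (0.513). Another member came above every gene outside the 9 for Lum, Mmp2, Col5a2 (Col6a2, 0.979), Adam12 (Mmp27, 0.927) and Aspn (Col5a2, 0.888).

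The next question was how the members ran with depth below the epidermis. Fibroblast-like cells were binned by distance to the nearest granular keratinocyte-like cell: 0 to 50, 50 to 100, 100 to 200, 200 to 400 and over 400 µm. This distance includes the epidermis below the granular cells. Basal keratinocyte-like cells lay at a median of 35.0 µm in the Utx-cKO section and 17.3 µm in the WT section. The same bin therefore need not cover the same depth of dermis in the 2 sections. The mix of clusters changed along this axis. The Igfbp2 cluster made up 67.0, 53.1, 29.0, 11.3 and 5.96% of fibroblast-like cells in these bins of the Utx-cKO section and 79.1, 64.1, 34.1, 12.1 and 7.43% in those of the WT section. The Sfrp2 cluster made up 12.1, 11.5, 18.1, 61.5 and 86.8% in the Utx-cKO section and 8.20, 8.94, 32.2, 62.8 and 80.0% in the WT section. The deepest bin held only 151 fibroblast-like cells in the Utx-cKO section and 807 in the WT section.

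**Figure D3:**
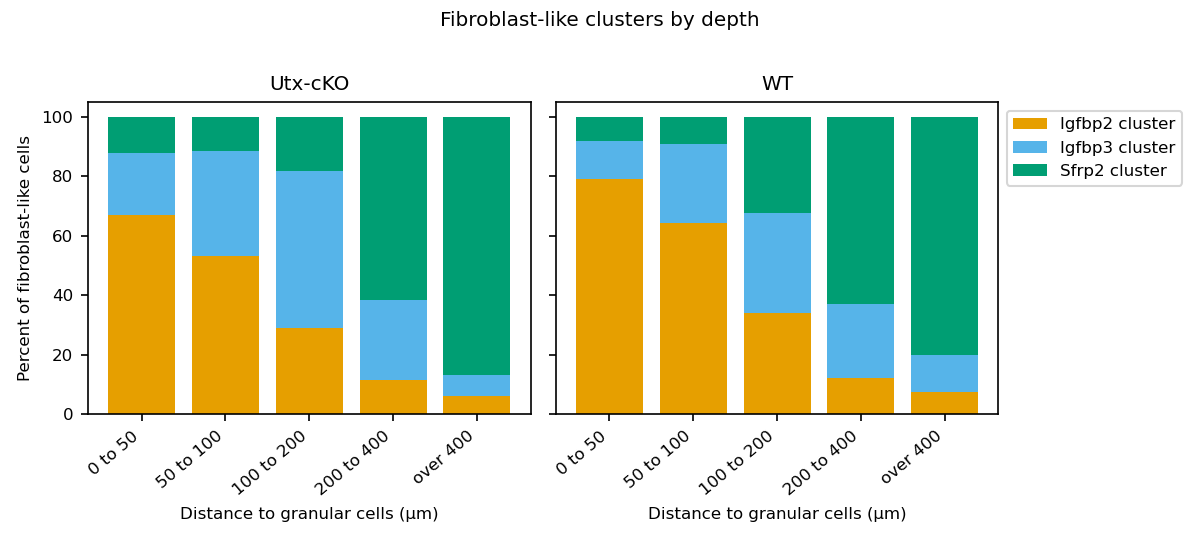
Share of the 3 fibroblast-like clusters (stacked bars, percent of fibroblast-like cells) in 5 bins of distance to granular cells (µm), Utx-cKO section on the left and WT section on the right. The Igfbp2 cluster leads at 0 to 50 µm, with 67.0 and 79.1%, and the Sfrp2 cluster beyond 400 µm, with 86.8 and 80.0%.

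Pooled over strips, Mfap4 had the lowest deep over shallow ratios. Its level in fibroblast-like cells ran 36227, 42907, 17205, 4298 and 1461 CPM from the shallowest to the deepest bin of the Utx-cKO section and 39724, 37171, 13632, 5761 and 3093 CPM in the WT section. Cells deeper than 200 µm had 4105 CPM against 40025 CPM for those within 100 µm in the Utx-cKO section (log2 -3.29, -3.43 to -3.14), and 4583 against 38171 CPM in the WT section (-3.06, -3.18 to -2.94). This contrast of deep and shallow cells was chosen after the bins had been seen. The decline was also present within single clusters. In the Sfrp2 cluster Mfap4 ran 19002, 30536, 9137, 2234 and 450 CPM in the Utx-cKO section and 39036, 33699, 6520, 1611 and 818 CPM in the WT section. Shallow Sfrp2 cells thus had levels within the range of Igfbp2 cells. Within strips the deep cells were at least 1.5 times lower in 7 of 8, and Utx-cKO strip 4, where the gene was low throughout, was the exception at 0.42, from 67 counts. Mmp27 had the lower ratio of the pair in 5 of 8 strips. Without strip 3 the pooled ratio was -1.59 in the Utx-cKO section and -2.10 in the WT section.

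Mmp27 ran 10954, 11107, 6945, 2445 and 1860 CPM in the Utx-cKO section and 11944, 10809, 6422, 3413 and 2988 CPM in the WT section. Deep over shallow, its log2 ratio was -2.20 (-2.40 to -2.00) in the Utx-cKO section and -1.80 (-1.96 to -1.65) in the WT section. It was the one member at least 1.5 times lower in the deep cells of all 8 strips, where its log2 ratios lay between -2.71 and -1.08. It was also lower in each of the 3 clusters of both sections, with log2 ratios from -2.71 to -1.29. The RefSeq table held the start region of 4 of the 9 members. The 250 bases before the start of Mmp27 (gene at chr9:7571396-7581885) and of Aspn (chr13:49544443-49567565) are printed, as the members with the steadiest decline with depth and with a second, epithelial site, in build GRCm38.p6 and both on the plus strand. Capitals mark TATAAA and CCAAT on either strand, searched as 2 promoter motifs known in general, which occurred in 12.4% and 33.8% of 32851 windows of the same length.
Mmp27 (chr9:7571146-7571395): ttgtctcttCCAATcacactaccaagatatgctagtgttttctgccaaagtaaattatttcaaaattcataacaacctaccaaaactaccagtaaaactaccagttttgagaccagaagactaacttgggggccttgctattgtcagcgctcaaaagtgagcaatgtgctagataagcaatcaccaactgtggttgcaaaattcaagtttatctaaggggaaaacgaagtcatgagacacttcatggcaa
Aspn (chr13:49544193-49544442): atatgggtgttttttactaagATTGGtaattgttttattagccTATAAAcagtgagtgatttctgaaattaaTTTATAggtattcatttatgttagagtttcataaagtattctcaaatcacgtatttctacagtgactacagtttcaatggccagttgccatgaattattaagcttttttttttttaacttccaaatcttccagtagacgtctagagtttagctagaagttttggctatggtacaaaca
The window of Mmp27 held 1 CCAAT match and no TATAAA, and that of Aspn held 1 CCAAT and 2 TATAAA matches. A match is a run of letters and not a site shown to work.

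Pooled over strips, 5 of the 9 genes were at least 1.5 times lower deep than shallow in both sections: Mfap4, Mmp27, Adam12, Aspn and Col5a2. Of all genes tested 23.6% were lower by that much in the Utx-cKO section and 35.8% in the WT section. Lum passed it in the Utx-cKO section only. In these cells no member was 1.5 times higher, against 13.1% and 17.7% of all genes. Adam12 had 407 CPM deep and 1072 CPM shallow in the Utx-cKO section (log2 -1.40, -1.94 to -0.87), and 301 and 692 CPM in the WT section (-1.20, -1.76 to -0.67). Single strips had only 9 to 89 counts of it, and the intervals of 6 of 8 spanned 0. Without strip 3 its ratio was -0.12 in the Utx-cKO section and -0.85 in the WT section. Lum had 22667 CPM deep and 35508 CPM shallow in the Utx-cKO section (-0.65), and 25818 and 33120 CPM in the WT section (-0.36). Its ratio was below 0 in all 8 strips but past 1.5-fold in 1.

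Aspn and Col5a2 showed a pooled decline that did not hold within strips. Aspn had 8843 CPM deep and 16515 CPM shallow in the Utx-cKO section (log2 -0.90, -1.02 to -0.78), and 8557 and 16601 CPM in the WT section (-0.96, -1.06 to -0.86), yet no strip was 1.5 times lower and 2 were 1.5 times higher. Without strip 3 its ratio was 0.17 in each section. Col5a2 had 24945 CPM deep and 42330 CPM shallow in the Utx-cKO section (-0.76, -0.83 to -0.69), and 21597 and 39271 CPM in the WT section (-0.86, -0.93 to -0.80). Its strips lay between -0.43 and 0.47, and without strip 3 its ratio was 0.06 in the Utx-cKO section and -0.27 in the WT section. Strip 3 held fibroblast-like cells that were shallower than in most strips, at a median of 105 µm in the Utx-cKO section and 82.2 µm in the WT section. Without Utx-cKO strip 3, Lum, Mfap4 and Mmp27 were 1.5 times lower in the deep cells of that section, of 8 members measured, as were 17.2% of genes, and Col6a3 was higher (24% of genes). Without WT strip 3, Mfap4 and Mmp27 were lower in that section (22.2% of genes) and Col6a3 was higher (20.8%). Adam12 had under 100 counts in either case.

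Col6a2 was lower in deep cells by less than 1.5-fold, at -0.39 in the Utx-cKO section (-0.47 to -0.32) and -0.39 in the WT section (-0.45 to -0.33), and without strip 3 it stood at 0.22 and 0.14. Col6a3 stood at -0.03 and 0.26, and without strip 3 at 0.60 and 0.74. Col6a3 was 1.5 times higher in the deep cells of 3 strips, up to a log2 ratio of 1.47. Mmp2 was the only member higher in the deep cells of both sections, with 24728 CPM against 22104 CPM in the Utx-cKO section (0.16, 0.08 to 0.25) and 25046 against 18224 CPM in the WT section (0.46, 0.39 to 0.53). It was higher in 7 of 8 strips, past 1.5-fold in 1. Counted over all transcripts, in cells or not, Mfap4 and Mmp27 were still lower at depth, at -1.08 and -0.57 in the Utx-cKO section and -1.67 and -1.23 in the WT section, where the shallow tissue includes the epidermis. By that count 6 of the 9 were at least 1.5 times higher at depth in the Utx-cKO section, as were 30.4% of genes: Col6a3 (1.70), Mmp2 (1.61), Col6a2 (1.32), Lum (1.03), Col5a2 (0.93) and Aspn (0.61), with Adam12 at 0.06. In the WT section 2 were, as were 25.6% of genes, Col6a3 (1.01) and Mmp2 (1.00), with Col6a2 at 0.49 and Lum at 0.44. Mfap4 alone was 1.5 times lower in the Utx-cKO section (31.9% of genes), and Mfap4 and Mmp27 were in the WT section (50.8%).

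**Figure D4:**
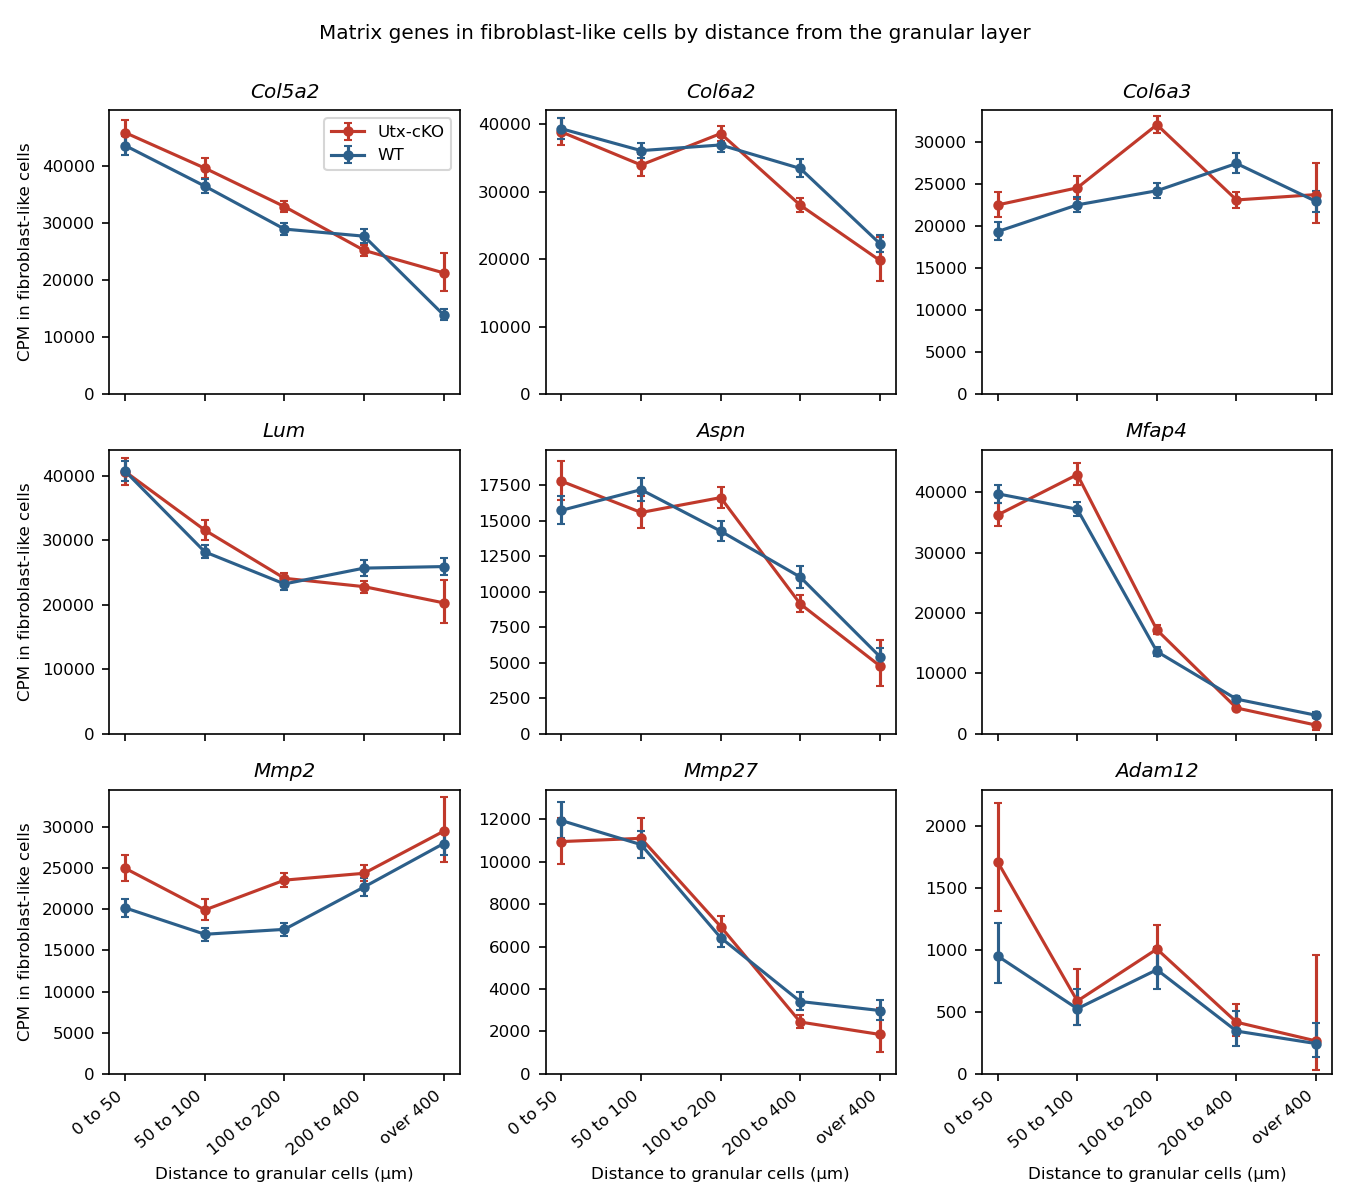
Level of each gene in fibroblast-like cells (CPM, from 0) by distance to granular cells (µm), Utx-cKO section in red and WT section in blue, with exact 95% counting intervals. Mfap4 and Mmp27 decline along the axis, Mmp2 is highest beyond 400 µm, and the 2 sections run close together for most genes.

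Col5a2 differed between strips more than between fibroblast types or sections. In fibroblast-like cells of strips 1 to 4 it stood at 26419, 28477, 44642 and 10039.5 CPM in the Utx-cKO section and 19616, 22047, 48378 and 10934 CPM in the WT section. The highest strip was 4.45 times the lowest in the Utx-cKO section and 4.42 times in the WT section, against medians of 1.78 and 1.71 over 149 genes with at least 1000 counts. Strip 3 was the highest in each of the 3 fibroblast-like clusters of both sections and strip 4 the lowest. Aspn had 9446, 11242, 19253 and 6024 CPM in the Utx-cKO section and 7511, 8102, 21454 and 7394 CPM in the WT section, a 3.20-fold and 2.90-fold range. Mfap4 had 8829, 14126, 29988 and 2643 CPM in the Utx-cKO section and 11163, 19230, 31732 and 15179 CPM in the WT section. Its range was 11.3-fold in the Utx-cKO section, where strip 4 was low, and 2.84-fold in the WT section. Mmp2 varied by 1.25-fold and 1.39-fold, with 20228, 21898, 25219 and 23786 CPM in the Utx-cKO section and 23038, 16552, 17506 and 22377 CPM in the WT section. Which animals or sites these strips came from cannot be told apart from the strips themselves.

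Between the sections, none of the 9 genes differed by 1.5-fold in fibroblast-like cells, while 15.6% of all genes tested were higher and 1.59% lower in the Utx-cKO section by that much. The median log2 ratio was 0.05 over the members and 0.16 over all genes. Adam12 had the highest ratio, with 816 CPM in the Utx-cKO section and 615 CPM in the WT section (log2 0.41, 0.16 to 0.66), from 262 and 257 counts. Mmp2 had 23568 and 20183 CPM (0.22, 0.18 to 0.27), and Col6a3 had 26746 and 23402 CPM (0.19, 0.15 to 0.23). Col5a2 (0.08), Aspn (0.05), Col6a2 (-0.02) and Lum (-0.08) stood close to 0. Mfap4 had 18842 CPM in the Utx-cKO section and 20891 CPM in the WT section (-0.15, -0.20 to -0.10), and Mmp27 had 6486 and 7412 CPM (-0.19, -0.27 to -0.11). For all 9 the strips of the 2 sections overlapped, and over all genes tested every Utx-cKO strip lay above every WT strip for 1.13% and below for 0.227%. Over all transcripts of the sections, in cells or not, none of the 9 passed 1.5-fold either, where 24.6% of genes were higher and 3.13% lower.

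These ratios depend on strip 3 of either section. Without Utx-cKO strip 3, 3 of the 9 genes passed 1.5-fold: Mfap4 at -1.38, Mmp27 at -0.72 and Aspn at -0.62. Of all genes 3.65% were then that much lower and 17.5% higher. Without WT strip 3, Col5a2 stood at 0.86 and Aspn at 0.88, and Adam12 at 0.66, where 33.1% of all genes were that much higher and 2.92% lower. Within the fibroblast-like clusters 1 value passed, Adam12 in the Igfbp2 cluster, with 1072 CPM in the Utx-cKO section and 633 CPM in the WT section (0.76, 0.35 to 1.17), as did 8.62% of genes higher and 2.07% lower there. No member passed in the Igfbp3 cluster (9.54% of genes higher, 8.4% lower) or the Sfrp2 cluster (18.9% higher, 2.5% lower). Its strips were 840, 451, 1706 and 212 CPM in the Utx-cKO section and 433, 660, 789 and 709 CPM in the WT section, so they overlapped and 1 strip stood above the rest. By depth, Adam12 was also past 1.5-fold at 0 to 50 µm, with 1710 and 951 CPM (0.85, 0.32 to 1.37) from 64 counts in each section, where 5.95% of genes were that much higher. Counted from granular cells, a bin need not cover the same depth of dermis in both sections. Beyond 400 µm, with 151 Utx-cKO cells, Col5a2 stood at 0.62 (9.16% of genes higher), and Mfap4 at -1.08 and Mmp27 at -0.68 (19.8% lower), the last pair from 11 and 14 counts in the Utx-cKO section, and the interval of Mmp27 (-1.59 to 0.10) spanned 0.

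**Figure D5:**
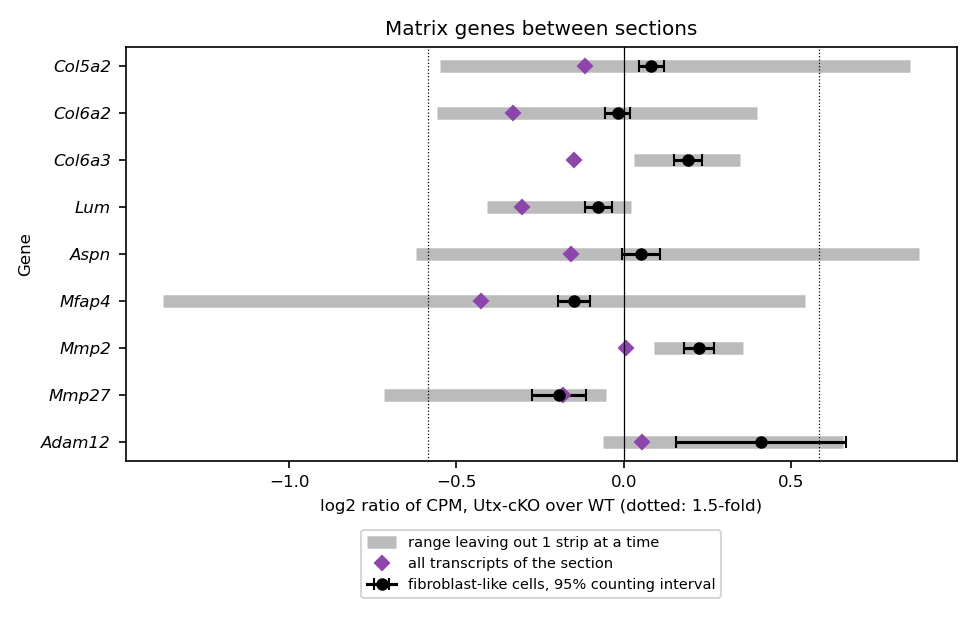
Utx-cKO over WT log2 ratio of CPM for each gene in fibroblast-like cells (black, with exact 95% counting intervals), its range when each of the 8 strips is left out in turn (grey), and the ratio over all transcripts of the sections (purple). All black points lie inside the dotted 1.5-fold lines, and the grey bars of Mfap4, Mmp27, Aspn, Col5a2 and Adam12 cross them.

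Outside fibroblast-like cells all 9 genes were lower in the Utx-cKO section over all other kept cells, with log2 ratios from -0.58 to -0.20, and none by 1.5-fold (3.57% of genes were that much lower and 16.4% higher). The share of all panel genes with a ratio below 0 in these cells is not given, so the shared direction is not read as particular to the members. Col6a2, for one, had 4510 CPM in the Utx-cKO section and 6724 CPM in the WT section (-0.58, -0.62 to -0.54). The mix of cells in this pool differed between the sections. The cluster led by Cd1d1 and Fasn held 1478 Utx-cKO and 2784 WT cells, and the sebocyte-like cluster 2772 and 1368. The part of this mix in the pooled ratios was not tested. In the sebocyte-like cluster 5 of 8 measured members were at least 1.5 times lower, as were 18.9% of all genes in that cluster. Lum had 627 and 1339 CPM there (-1.09), Mfap4 2277 and 4719 CPM (-1.05), Col6a2 1403 and 2786 CPM (-0.99), Col5a2 1150 and 2104 CPM (-0.87) and Aspn 738 and 1188 CPM (-0.69). In the granular keratinocyte-like cluster 3 of 7 were lower by that much (7.96% of genes), Col6a2 at -0.75, Col6a3 at -0.70 and Lum at -1.05. Shares of transcripts outside cells were lower in the Utx-cKO section for each member. The median over all genes with at least 100 transcripts was lower as well, at 7.31% against 10.9% in the WT section. The part of neighbouring fibroblasts in the differences of these clusters was not tested. Mfap4 was also at least 1.5 times lower in the endothelial-like cluster (-0.63, 2.66% of genes), the macrophage-like cluster (-0.67, 4.74%) and the upper hair follicle-like cluster (-0.96, 10.5%). Col5a2 was at least 1.5 times higher in 1 cluster: in the Krt17 and Serpinb11 cells Col5a2 had 5224 CPM in the Utx-cKO section and 2603 CPM in the WT section (1.01, 0.63 to 1.39), 1 of 3 members measured there, where 4.39% of genes were 1.5 times higher. Its strips were 3470 to 6045 CPM in the Utx-cKO section and 1242 to 3730 CPM in the WT section, and they overlapped.

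Other matrix genes on the panel numbered 9, by a list of matrix names: Col6a1, Col17a1, Fn1, Tnc, Postn, Thbs2, Sparcl1, Lamb3 and Htra1. In fibroblast-like cells 1 passed 1.5-fold upward in the Utx-cKO section and none passed it downward, as did 15.6% and 1.59% of all genes tested. Their median log2 ratio was -0.14 against 0.16 over all genes. The one was Tnc, which encodes tenascin C, a glycoprotein of remodelling matrix, with 1159 CPM in the Utx-cKO section and 469 CPM in the WT section (1.31, 1.05 to 1.56). Fn1, the fibronectin gene, had 28746 and 35685 CPM (-0.31), and Postn, the periostin gene, 30553 and 30151 CPM (0.02). Both peaked in the Sfrp2 cluster, at 60875 and 52374 CPM over both sections, against 17450.0 and 11154 CPM in the Igfbp2 cluster, the opposite order to Mfap4. Col6a1 had 26665 CPM in the Utx-cKO section and 25337 CPM in the WT section (0.07). Over both sections it had 27596, 28544 and 21628 CPM in the Igfbp2, Igfbp3 and Sfrp2 clusters. Col17a1 and Lamb3, which encode parts of the epidermal basement membrane contact, had at most 1051 and 276 CPM in these 3 clusters.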

How the data were processed

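RNA of 480 custom panel genes was imaged in 5 µm sections of fixed, embedded skin, 1 per group. The authors deposited, per the file headers, 1 line per decoded transcript with its position, cell and quality score, and whole-number transcript counts per segmented cell. Software for decoding and segmentation: not given in the sources used here. Transcripts with a score of at least 20 were counted, and cells with at least 20 of them were kept. Nucleus outlines were not used beyond the deposited mark of whether a transcript lay over a nucleus, and no doublet caller was run. The values of 1 unnamed cluster are not reported here. Cells were clustered without the 9 genes (30 principal components, 15 neighbours, Leiden resolution 1). A cluster was named where at least 3 of its 10 leading genes were markers of a type, and was taken as epithelial where keratinocyte markers made up at least 6% of its counts. Counts were scaled to CPM of the other 471 genes, and intervals are exact 95% intervals of the ratio or count. A gene needed 100 counts over the groups compared, and differences were called by size, at 1.5-fold. Strips were areas of at least 1000 cells linked within 50 µm.

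The genes named were the 9 members, the 3 panel genes most like each, and, of a list of other matrix genes, those past 1.5-fold between sections and the 3 most abundant in fibroblast-like cells. Members and lists were chosen with earlier results of these data known. Only the ratios, their intervals and the 1.5-fold rule were tried on simulated counts, which had counting error and no differences between strips. Clustering, naming, depth bins and strips were not part of that simulation. The alternatives changed the quality score, cell minimum, resolution, clustering genes, scaling, distance, compartment, depth per cell and strips used. Python 3.11.15 was used with numpy 2.4.6, pandas 2.3.3, scipy 1.17.1, scikit-learn 1.9.0, igraph 0.11.9 and leidenalg 0.10.2.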

Additional observations from a re-analysis of the deposited data

How the results depend on the processing

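With 1 section per group, no value carries an error between animals. No paired analysis was possible because each group has 1 section and strip numbers do not match between sections. Of 9 genes highest in a fibroblast-like cluster, 5 were so when cells needed at least 40 transcripts. Aspn was not so at a quality score of at least 30, Mfap4 and Adam12 were not at resolution 0.5, and Adam12 was not over nuclei only. The 5 genes at least 1.5 times lower at depth in both sections became 1 over all transcripts, in cells or not, where the Utx-cKO ratios of Col5a2 (0.93), Lum (1.03), Aspn (0.61), Adam12 (0.061), Col6a2 (1.32) and Col6a3 (1.70) and the WT ratios of Col6a2 (0.49) and Lum (0.44) turned positive. With each strip left out in turn, a choice added after seeing the data, that count was 2 to 5. Utx-cKO ratios of deep over shallow cells then ran from -0.91 to 0.063 for Col5a2 and from -1.06 to 0.17 for Aspn, and WT ratios of Aspn from -1.07 to 0.17, each positive only without strip 3 of that section. The cause was not tested. The count of 0 genes past 1.5-fold between the sections was 0 to 3 with a strip left out, at 3 without Utx-cKO strip 3 and 3 without WT strip 3. Resolution 0.5 gave 1 fibroblast-like cluster, so fibroblast types could not be compared there. Adam12, at 262 Utx-cKO and 257 WT counts in fibroblast-like cells, is limited by depth.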
